A study of Sebastes schlegelii with 6 samples.

Results

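The genes described here are the peroxisome proliferator-activated receptors (PPAR), their partner receptors of the RXR family and the PGC-1 coactivators, measured in the liver of a marine teleost, the Korean rockfish (Sebastes schlegelii). They were chosen by symbol: every row of the count table named for ppara, ppard, pparg, ppargc1a, ppargc1b, rxra, rxrb or rxrg, whatever its case and with or without a paralog letter, was kept. This took 10 of 19303 genes, namely 4 PPAR, 4 RXR and 2 PGC-1 genes, and all 10 passed the filter on low counts. The libraries came from 3 starved and 3 fed livers, both labelled 72 days, and the age and strain of the fish are not known here. The series title names starvation stress as the subject. Nothing in the labels ties the 3 libraries of a group to separate fish, and the p-values below reflect the spread between libraries, which may be technical.

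As background, a PPAR binds DNA as a pair with an RXR and is switched on by fatty acids and their derivatives. PPARA is best known from mouse liver, where it drives the burning of fatty acids and the making of ketone bodies during fasting. PPARG is known for fat storage in adipocytes, and PPARD for fat oxidation in many tissues. RXR proteins bind 9-cis retinoic acid and also pair with the receptors for vitamin D, thyroid hormone, retinoic acid, oxysterols and bile acids. PGC-1alpha and PGC-1beta do not bind DNA themselves but dock on such receptors and promote transcription of mitochondrial and, for PGC-1alpha in fasted mouse liver, gluconeogenic genes. Teleosts carry several of these genes in more than a single copy.

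Total counts ranged from 11623356 to 14716282 per library. Fed replicate 1 stood apart: 41.7% of its uniquely mapped reads were spliced, against 50.7% to 53.3% in the other libraries, and 6 of the 10 genes (60%) were lowest in it, against 32.9% of all 13338 tested genes. Values without this library are therefore given beside the results. Of the marker lists, 10 hepatocyte names matched 24 genes that summed to 159520 to 198740 CPM (counts scaled to the library total, with TMM factors) in starved and 142040 to 288000 CPM in fed liver. The 288000 CPM was that of fed replicate 1, and the other fed libraries had 142040 and 188860 CPM. Fibroblast and stellate cell markers summed to 96.1 to 116 CPM in starved and 274 to 418 CPM in fed liver, with 4 of 6 tested genes called lower. This difference runs alongside the results below, and its part in them was not tested. Leukocyte markers (358 to 533 CPM in starved against 257 to 435 CPM in fed liver), erythrocyte markers (starved 9.21 to 45.7, fed 31.3 to 79.2 CPM), pancreatic enzymes (starved 16.9 to 325, fed 13.7 to 70.8 CPM) and adipocyte markers (starved 0.425 to 3.16, fed 0.444 to 2.85 CPM) overlapped between the groups. The lowest fed leukocyte sum was that of fed replicate 1, the other fed sums being 398 and 435 CPM. Endothelial markers summed to 122 to 143 CPM in starved and 86.2 to 122 CPM in fed liver, the ranges meeting at their edge. RNA came from whole liver, so fewer cells of a type and less RNA per cell cannot be told apart.

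Of the 10 genes, 1 rose and 2 fell in starved liver, and 7 did not pass an adjusted p of 0.05 (quasi-likelihood test of edgeR, adjusted by Benjamini-Hochberg over all tested genes). The called share of 30% stands beside 5.16% of all tested genes, of which 2.18% were called higher and 2.98% lower. The 10 genes were chosen with earlier results of these data known, so this share is a description and no evidence of enrichment. PPARGC1A, encoding PGC-1alpha, rose, while the copy listed as PPARA and rxrgb fell. Starved and fed CPM did not overlap for 5 of the 10 genes, 3 higher and 2 lower, against 31.1% of all tested genes (15.6% higher and 15.5% lower). The median log2 fold change was 0.26 over the 10 genes and -0.03 over all tested genes. Without fed replicate 1, 5 of the 10 were called, beside 12.3% of all tested genes (5.81% higher and 6.5% lower), the added genes being the copy listed as ppara and PPARD. The DESeq2 Wald test also called 5, beside 12.4% of the genes it tested, and limma-voom with quality weights per library called 5, beside 14.6%. By the authors' deposited table, the q-value was under 0.05 for 5 of the 10, with 3 higher and 2 lower, beside 9.49% of its genes (3.95% higher and 5.54% lower).

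**Figure D1:**
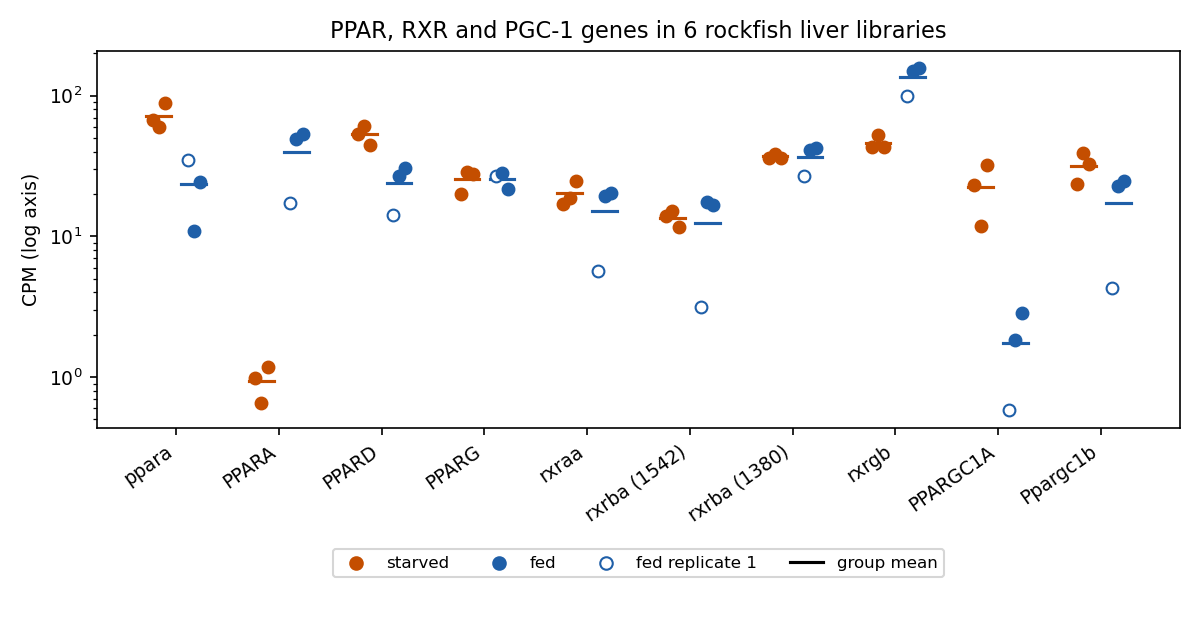
CPM of the 10 genes on a log axis, with a point per library (starved left of fed, fed replicate 1 open) and a line at each group mean; numbers after rxrba are coding lengths in bases. The PPARA copy sits near 1 CPM in the starved libraries and at 17.4 to 53.4 CPM in the fed ones, PPARGC1A runs the other way, and fed replicate 1 is the lowest library for 6 of the genes.

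The 2 genes named for PPARA differed in direction. The copy listed as PPARA (S.schlegelii_GLEAN_10017048, coding length 1410 bases) had 0.992, 0.659 and 1.17 CPM in starved liver, from 14, 10 and 16 counts, against 17.4, 49.2 and 53.4 CPM in fed liver, from 150, 776 and 694 counts. Every starved library lay below every fed library, and the lowest fed value was that of replicate 1. Its level fell 42.3-fold (log2 fold change -5.40 ± 0.52 SE; edgeR adjusted p = 0.00339, n = 3 per group). The call stood in each of the 17 alternatives tried, with adjusted p up to 0.0387, and without fed replicate 1 the log2 fold change was -5.77. The ratio of starved over fed in the authors' deposited table was 0.0237, with a q-value of 2.79e-22.

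The copy listed as ppara (S.schlegelii_GLEAN_10009683, coding length 1434 bases) had 67.4, 60.0 and 88.8 CPM in starved liver, against 35.1, 11.0 and 24.4 CPM in fed liver. Here every starved library lay above every fed one, and fed replicate 1 was the highest of the fed libraries. The log2 fold change of 1.62 ± 0.42 (SE, n = 3 per group) did not pass (edgeR adjusted p = 0.0656). It passed without fed replicate 1 (log2 fold change 2.03, adjusted p = 0.022), with the DESeq2 Wald test (adjusted p = 0.00474), in both FPKM fits (adjusted p = 0.0215 and 0.026), with no filter on low counts (adjusted p = 0.0419) and with quality weights per library (adjusted p = 0.00594). It did not pass in the other alternatives, with an edgeR adjusted p up to 0.222 (without starved replicate 3). In the authors' deposited table its ratio of starved over fed was 3.09 with a q-value of 0.00495.

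The difference between the copies was also expressed within libraries, where no scaling is needed. The log2 ratio of counts, the ppara copy over the PPARA copy, was 6.04, 6.44 and 6.20 in starved liver, against 1.01, -2.16 and -1.13 in fed liver. The ratio was higher in each starved library than in any fed library, and in fed replicate 1 the ppara copy was the more abundant. The means differed by 6.98 on the log2 scale (exact permutation test over libraries, 2-sided p = 0.1, the smallest that 3 against 3 libraries allow). With 1 copy higher and the other lower in every starved library, the ratio had to separate the groups. This p was therefore fixed by the levels of the single copies and is no separate support. Over the alternatives the difference was 6.28 to 7.87.

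Per length, the ppara copy made up 98.5%, 98.9% and 98.7% of the summed FPKM (fragments scaled to coding length and library total) of both copies in starved liver, against 66.5%, 18.0% and 31.0% in fed liver. The sum itself was 49.97, 45.6 and 58.1 FPKM in starved liver, against 27.3, 51.5 and 58.0 FPKM in fed liver. The sums of the 2 groups overlapped, and their means differed by 5.58 FPKM (51.2 ± 6.34 in starved and 45.6 ± 16.2 in fed liver, SD, n = 3 per group; exact permutation test, 2-sided p = 0.8). The difference was -3.57 FPKM, of the other sign, without fed replicate 1 (fed mean 54.8 FPKM). Summed as TMM-scaled CPM, the copies had 68.3, 60.6 and 90.0 in starved liver, against 52.5, 60.2 and 77.8 in fed liver, also overlapping. On that scale the means differed by 9.47 CPM, and by 3.98 CPM without fed replicate 1. The p of these sums does not show that they were equal.

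**Figure D2:**
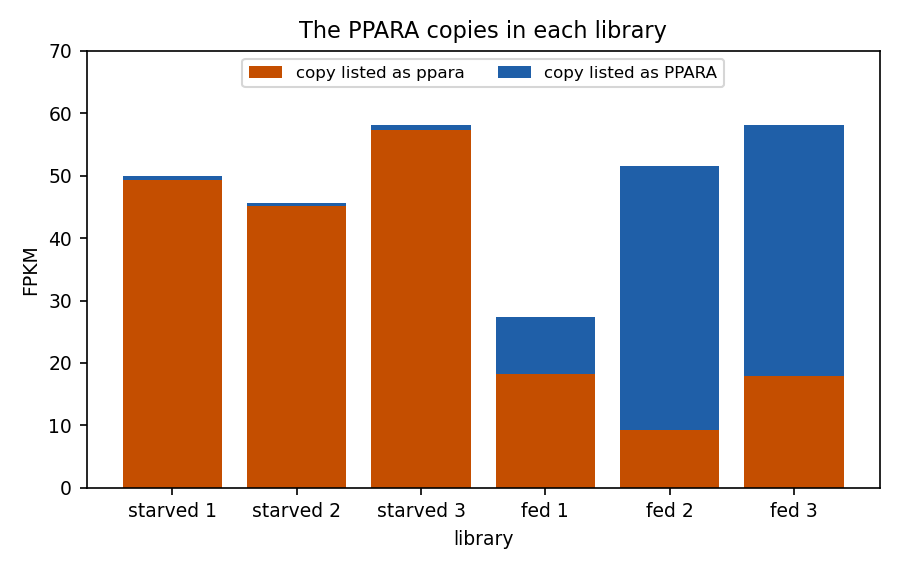
FPKM per library (starved left of fed) of the copy listed as ppara, stacked with the copy listed as PPARA. The starved bars are almost wholly the ppara copy, fed replicates 2 and 3 are mostly the PPARA copy, and apart from the 27.3 FPKM of fed replicate 1 the stacked heights lie between 45.6 and 58.1 FPKM.

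PPARD (S.schlegelii_GLEAN_10017972), a receptor of the same family with a broad tissue range in mammals, had 53.6, 61.3 and 44.9 CPM in starved liver, against 14.3, 26.8 and 30.7 CPM in fed liver. The groups did not overlap, and fed replicate 1 was the lowest library. Its log2 fold change of 1.15 ± 0.32 (SE, n = 3 per group) did not pass (edgeR adjusted p = 0.0834). It passed without fed replicate 1 (log2 fold change 0.89, adjusted p = 0.0282), with the DESeq2 Wald test (adjusted p = 0.0143) and with quality weights (adjusted p = 0.0249). It did not pass in the other alternatives, with an edgeR adjusted p up to 0.263 (without starved replicate 2). The authors' deposited table gives it a ratio of 2.24 with a q-value of 0.0163.

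PPARG (S.schlegelii_GLEAN_10012726), the receptor known from adipocytes, had 20.04, 28.5 and 27.8 CPM in starved liver, against 26.7, 28.0 and 21.9 CPM in fed liver. The groups overlapped, and this was the only gene of the PPAR family for which they did. Its mean was 25.5 ± 4.71 CPM in starved and 25.5 ± 3.24 CPM in fed liver (SD, n = 3 per group; edgeR adjusted p = 0.997). Over the alternatives its log2 fold change lay between -0.10 and 0.15. Only 2 of the 6 adipocyte marker names matched a gene, 1 of which passed the filter on low counts, so that list describes little of any adipocyte RNA.

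Taking the 4 PPAR genes as a sum per length, starved liver had 100.03, 108 and 101 FPKM, against 46.3, 93.5 and 93.6 FPKM in fed liver. The groups did not overlap, although without fed replicate 1 the difference of the means was 9.56 FPKM, against 25.3 FPKM with it. PPARD made up 37.4%, 40.7% and 27.3% of this sum in starved liver, against 15.2%, 23.0% and 23.1% in fed liver. The PPARD shares did not overlap, a description that restates the levels of the single genes. FPKM carries no TMM scaling, and the TMM factor of fed replicate 1 was 0.743, against 0.926 to 1.21 in the other libraries.

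Among the RXR genes only rxrgb (S.schlegelii_GLEAN_10016902), a paralog of the gene for retinoid X receptor gamma, was called. It had 43.1, 52.9 and 43.1 CPM in starved liver, against 100.1, 149.7 and 158 CPM in fed liver. Every starved library lay below every fed library, and fed replicate 1 was the lowest of the fed. Its level fell 2.93-fold (log2 fold change -1.55 ± 0.28 SE; edgeR adjusted p = 0.0224, n = 3 per group). The call was lost on leaving out any of the libraries except fed replicate 1 (adjusted p from 0.0545 to 0.137) and in both FPKM fits (adjusted p = 0.0707 and 0.0801). Without fed replicate 1 its log2 fold change was -1.73 (adjusted p = 0.00388). The authors' deposited table has a ratio of 0.344 for rxrgb, with a q-value of 4.67e-06.

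The other RXR genes did not pass. rxraa (S.schlegelii_GLEAN_10021706), an RXR alpha gene, had 17.1, 18.7 and 25.0 CPM in starved liver, against 5.68, 19.4 and 20.5 CPM in fed liver, so the groups overlapped (log2 fold change 0.41, edgeR adjusted p = 0.624). The longer gene listed as rxrba (S.schlegelii_GLEAN_10002833, coding length 1542 bases) had 14.0, 15.2 and 11.6 CPM in starved liver, against 3.13, 17.6 and 16.9 CPM in fed liver. In both genes the low fed value was that of replicate 1, and the other fed libraries lay within or above the starved range. The longer rxrba gene had a log2 fold change of 0.11 with all libraries (edgeR adjusted p = 0.927) and -0.34 without fed replicate 1 (adjusted p = 0.252). The shorter rxrba gene (S.schlegelii_GLEAN_10007559, coding length 1380 bases) had 36.3, 38.6 and 36.3 CPM in starved liver, against 26.7, 40.9 and 42.3 CPM in fed liver, with means of 37.0 CPM in starved and 36.6 CPM in fed liver (edgeR adjusted p = 0.979). No source used here says how the authors' counting treated reads shared by same-named copies, so the separate levels of the rxrba genes, and of the PPARA copies, are uncertain to that extent.

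The make-up of the RXR pool differed between the groups. rxrgb held 39.2%, 42.4% and 37.4% of the summed RXR FPKM in starved liver, against 73.6%, 66.0% and 66.7% in fed liver. The shares did not overlap, and fed replicate 1 lay on the same side as the other fed libraries. The mean share was 39.7% ± 2.53 in starved and 68.8% ± 4.21 in fed liver (SD, n = 3 per group), a difference of -29.1 percentage points (exact permutation test, 2-sided p = 0.1, the smallest possible), and -26.7 without fed replicate 1. This share was chosen for description after the values of single genes were seen, and it largely restates the fall of rxrgb. The summed RXR level was 81.0, 94.5 and 75.0 FPKM in starved liver, against 70.9, 193 and 176 FPKM in fed liver, and the groups overlapped only through fed replicate 1. Summed as TMM-scaled CPM, the RXR genes had 111, 125 and 116 in starved liver, against 136, 228 and 237 in fed liver. On that scale the groups did not overlap, and the means differed by -82.9 CPM (exact permutation test, 2-sided p = 0.1, the smallest possible, against p = 0.4 for the FPKM sums). This CPM sum, too, largely restates the fall of rxrgb, which averaged 46.4 CPM in starved and 136 CPM in fed liver. The other 3 RXR genes together had 49.2, 54.4 and 46.9 FPKM in starved liver, against 18.7, 65.6 and 58.6 FPKM in fed liver, again overlapping. Their means differed by 2.57 FPKM, and by -11.9 FPKM without fed replicate 1.

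**Figure D3:**
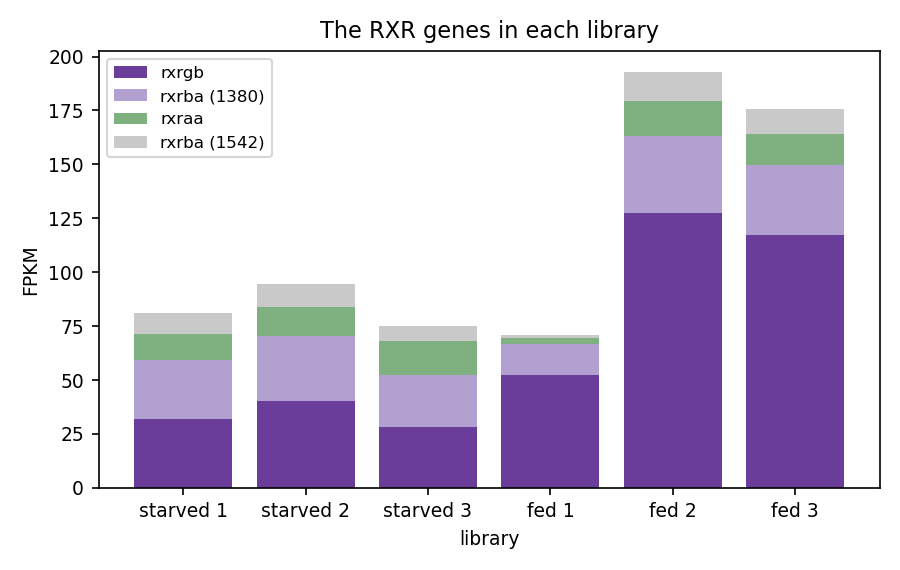
Stacked FPKM of the 4 RXR genes in each library (starved left of fed), with coding lengths in bases after rxrba. rxrgb is the largest block in every bar, at 66.0% to 73.6% of the height in fed and 37.4% to 42.4% in starved liver.

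PPARGC1A (S.schlegelii_GLEAN_10012209), the coactivator PGC-1alpha, had 23.2, 11.9 and 32.2 CPM in starved liver, against 0.58, 1.84 and 2.85 CPM in fed liver. The starved values came from 327, 180 and 439 counts and the fed ones from 5, 29 and 37 counts, and the groups did not overlap. It rose 12.4-fold (log2 fold change 3.63 ± 0.57 SE; edgeR adjusted p = 0.014, n = 3 per group). Fed replicate 1 was the lowest of the fed libraries, and without it the log2 fold change was 3.26 (adjusted p = 0.0176). The call ended without fed replicate 2 (adjusted p = 0.0557), starved replicate 1 (adjusted p = 0.0669) or starved replicate 3 (adjusted p = 0.0598). The authors' deposited table lists PPARGC1A with a ratio of 12.7 and a q-value of 1.26e-08.

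Ppargc1b (S.schlegelii_GLEAN_10018678), the coactivator PGC-1beta, had 23.6, 38.9 and 32.5 CPM in starved liver, against 4.29, 23.0 and 24.8 CPM in fed liver. The groups overlapped at a single pair of libraries, and the widest gap was that of fed replicate 1. Its log2 fold change of 0.86 ± 0.55 (SE, n = 3 per group) did not pass (edgeR adjusted p = 0.402), nor did that of 0.40 without fed replicate 1 (adjusted p = 0.3). Per length, PPARGC1A transcripts made up 51.0%, 24.5% and 51.3% of the summed FPKM of both coactivators in starved liver, against 12.5%, 7.82% and 10.9% in fed liver. These shares did not overlap (exact permutation test, 2-sided p = 0.1, the smallest possible), and fed replicate 1 was the highest of the fed. The share was chosen after the values of single genes were seen, and it largely restates the rise of PPARGC1A. The sum was 18.0, 19.7 and 21.9 FPKM in starved liver, against 1.29, 10.8 and 10.5 FPKM in fed liver.

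**Figure D4:**
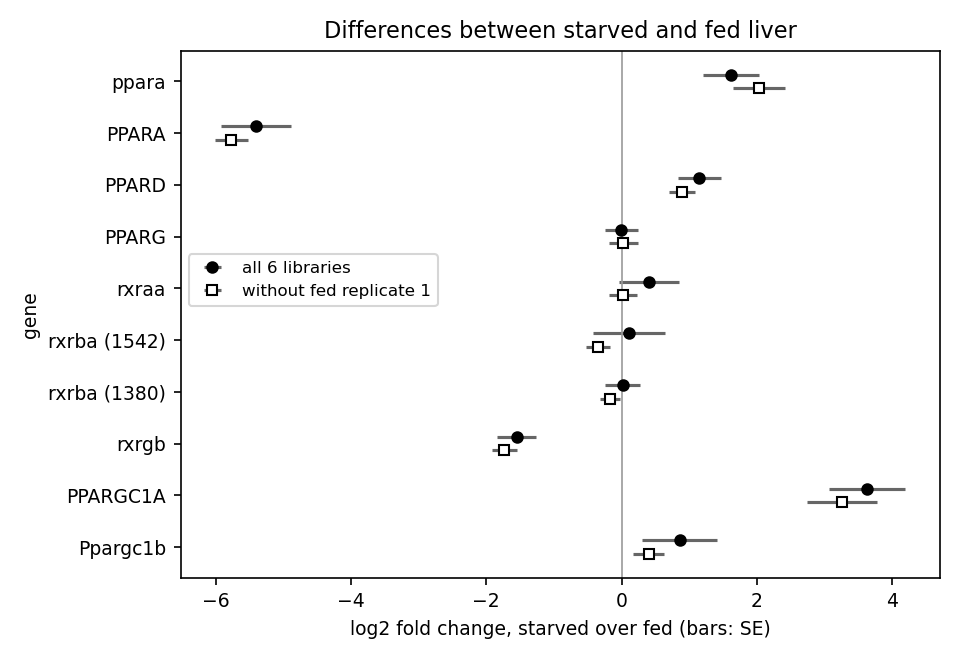
Log2 fold change of starved over fed for each of the 10 genes, with SE bars, from all 6 libraries (filled circles) and without fed replicate 1 (open squares). The PPARA copy lies at -5.40 and -5.77, rxrgb at -1.55 and -1.73 and PPARGC1A at 3.63 and 3.26, while ppara lies at 1.62 and 2.03 and PPARD at 1.15 and 0.89.

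The order of levels per length differed between the groups. In starved liver ppara led with 50.5 ± 6.22 FPKM, apart from PPARD at 36.3 ± 8.21 FPKM (SD, n = 3). PPARD, rxrgb (33.3 ± 6.17 FPKM) and the shorter rxrba gene (27.3 ± 2.92 FPKM) followed, each overlapping the next. Then came PPARG (15.6 ± 2.93 FPKM), rxraa, Ppargc1b, the longer rxrba gene and PPARGC1A (8.42 ± 3.28 FPKM), again each overlapping the next, and the PPARA copy stood apart below them at 0.671 ± 0.146 FPKM. In fed liver rxrgb led with 99.0 ± 40.8 FPKM, apart from the PPARA copy at 30.5 ± 18.5 FPKM. Below it came the shorter rxrba gene, PPARD, PPARG, ppara, rxraa, the longer rxrba gene, Ppargc1b and PPARGC1A (0.713 ± 0.499 FPKM). From the PPARA copy down, each gene's range over the fed libraries overlapped that of the next. Overlap here compares ranges over libraries, not genes within a library. Ppargc1b, at 1.13, 9.91 and 9.32 FPKM, exceeded PPARGC1A, at 0.162, 0.84 and 1.14 FPKM, in each fed library. The shorter rxrba gene likewise exceeded PPARD, rxraa the longer rxrba gene, and the latter Ppargc1b. The other orders among these overlapping neighbours did not hold in every fed library.

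For each called gene, the tested genes with the most similar profile were sought among 12541 genes with a symbol, by the root mean square difference between mean-centred log2 CPM over the 6 libraries. Nearest to PPARGC1A were efna1 (0.37), prtgb (0.40) and a gene listed as vdra, a vitamin D receptor (0.47). Nearest to the PPARA copy were LEAP2, a liver-expressed antimicrobial peptide (0.50), twf2 (0.62) and FBXO2 (0.63). Nearest to rxrgb were CDH17 (0.17), PER2, a component of the circadian clock (0.18), and Rab3d (0.18). CDH17 and Rab3d were not themselves called (edgeR adjusted p = 0.0559 and 0.0935). Some of the neighbours had low levels: Rab3d averaged 0.531 CPM in starved and 1.59 CPM in fed liver. The mean of twf2 was 0.0464 CPM in starved liver, and that of prtgb 0.166 CPM in fed liver. A gene that changes little has small differences by construction, so these distances compare only within a gene's own set. They are descriptions over 6 libraries that share the same group difference.

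Genes that surround these receptors were read from 5 lists of 102 names in all, of which 86 matched a symbol, giving 129 tested genes. Of these, 9 rose, 7 fell and 113 did not pass, a called share of 12.4% beside 5.16% of all tested genes. The lists, too, were chosen with earlier results known, so this share is a description. The count of called list genes was 28 without fed replicate 1, beside 1704 over the whole table. It was 4 to 10 without any other single library, beside 102 to 469 over the whole table. The median log2 fold change was 0.26 over the lists.

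Of 44 tested genes of fatty acid oxidation and other PPAR targets, 5 rose, 2 fell and 37 did not pass. Their median log2 fold change was 0.24, and the called share was 15.9% beside 5.16% of all tested genes. ucp2, a mitochondrial carrier, had 1240, 1238 and 1399 CPM in starved liver, against 225, 193 and 252 CPM in fed liver. The groups were far apart and tight, and it rose (log2 fold change 2.53, edgeR adjusted p = 0.00636, n = 3 per group; up to 0.0462 over the alternatives). CPT1A, which commits fatty acids to mitochondrial oxidation, was present in 3 tested copies. The copy that rose had 6.80, 2.64 and 6.83 CPM in starved liver, against 0.232, 0.254 and 0.231 CPM in fed liver, where it had 2 to 4 counts per library (log2 fold change 4.44 ± 0.55 SE, edgeR adjusted p = 0.00636). The other CPT1A copies, more abundant in both groups (means of 42.2 and 28.0 CPM in starved, 15.2 and 8.13 CPM in fed liver), stood at 1.46 and 1.77 on the log2 scale, short of the threshold (edgeR adjusted p = 0.066 and 0.117).

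SLC27A2, a fatty acid transport protein and acyl-CoA synthetase, had 69.3, 80.9 and 110 CPM in starved liver, against 475, 309 and 256 CPM in fed liver, in 1 of 4 tested copies. It fell (log2 fold change -2.00, edgeR adjusted p = 0.0212), but the call was lost on leaving out fed replicate 2 or a starved library. fabp1, a fatty acid binding protein, had 491 ± 86.9 CPM in starved and 950 ± 777 CPM in fed liver and did not pass (edgeR adjusted p = 0.349, n = 3 per group). The fed mean rests on 1846 CPM in fed replicate 1, and the other fed libraries had 471 and 532 CPM. An ANGPTL4 copy, encoding a secreted inhibitor of lipoprotein lipase, had 570, 28.2 and 190 CPM in starved liver, against 0.812, 0.507 and 0.616 CPM in fed liver. The starved libraries varied widely but all lay above the fed ones (log2 fold change 8.68, edgeR adjusted p = 0.00864). The log2 fold change was 7.42 without starved replicate 1, the highest library, and 9.22 without starved replicate 2, the lowest of the starved. Leaving out fed replicate 1 gave 8.85 with an adjusted p of 0.0662 from edgeR. A second ANGPTL4 copy, at -1.53, did not pass (edgeR adjusted p = 0.166). Besides these, LPL and a PLIN2 copy rose and another PLIN2 copy fell, each call being lost without any starved library or fed replicate 2. The LPL call was also lost without fed replicate 3, and that of the rising PLIN2 copy in both FPKM fits. The call of the falling PLIN2 copy was lost on leaving out any library at all. The counts of the target list without each library in turn were 3 to 6, beside 102 to 1704 genes called over the whole table.

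The deposited annotation gave a further view: 7 of the 10 genes carried the KEGG term for PPAR signalling, and so did 58 other tested genes, of which 4 rose, 10 fell and 44 did not pass. Their median log2 fold change was -0.16, and the called share was 24.1% beside 5.16% of all tested genes. This term was read after other results were known, and it holds genes of fat synthesis and storage as well as of oxidation. Without a single library the number called was 7 to 13, with the 7 reached on leaving out fed replicate 2 or any starved library. The whole table then had 102 to 1704 genes called.

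Of 12 tested receptors that pair with RXR, 2 rose and 10 did not pass. The called share was 16.7% beside 5.16% of all tested genes. Leaving out fed replicate 1, 3 rose and 0 fell, beside 12.3% of all tested genes called. The vdra gene that rose had 16.8, 10.7 and 12.3 CPM in starved liver, against 0.464, 1.20 and 1.15 CPM in fed liver (log2 fold change 3.75 ± 0.40 SE, edgeR adjusted p = 0.00467, n = 3 per group), and its call stood in every alternative. rara, a retinoic acid receptor, had 7.29, 6.98 and 8.22 CPM in starved liver, against 2.78, 2.85 and 3.15 CPM in fed liver (log2 fold change 1.35, edgeR adjusted p = 0.0296). Its call ended in both FPKM fits and without any library other than fed replicate 1. The remaining receptors did not pass, among them both genes listed as Nr1h4, the bile acid receptor, at -0.85 and 0.15 on the log2 scale (edgeR adjusted p = 0.121 and 0.771). Nr1h3, the oxysterol receptor, averaged 49.4 ± 8.36 CPM in starved and 49.4 ± 20.9 CPM in fed liver (SD, n = 3 per group).

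Of 28 coactivators and corepressors of PPAR and RXR, 1 rose, 3 fell and 24 did not pass. Those that fell included both genes listed as Pprc1, the PGC-1-related coactivator, the remaining relative of the PGC-1 family. The first Pprc1 gene had 11.5, 8.57 and 8.67 CPM in starved liver, against 26.2, 18.8 and 22.3 CPM in fed liver (log2 fold change -1.23, edgeR adjusted p = 0.0317). The second had 12.9, 4.02 and 7.71 CPM in starved liver, against 30.4, 30.4 and 64.4 CPM in fed liver (log2 fold change -2.35, edgeR adjusted p = 0.0319). Nr0b2, a corepressor that lacks a DNA-binding domain, fell (log2 fold change -2.63, edgeR adjusted p = 0.0436), and NCOA1, a histone acetyltransferase coactivator, rose (1.72, edgeR adjusted p = 0.0469). These 4 calls were lost on leaving out any starved library, and 0 genes of this list were then called (edgeR). Calls over the whole table fell too without starved replicate 1, 2 or 3. They numbered 102 of 13752, 146 of 13673 and 131 of 13777 tested genes, against 688 of 13338 with all libraries. The called share of this list was 14.3% with all libraries, beside 5.16% of all tested genes. Leaving out fed replicate 1, 2 of its genes rose and 3 fell, beside 12.3% of all tested genes called. With all libraries, 10 of the 28 genes had an unadjusted p under 0.05, beside 21.9% of all tested genes, and the DESeq2 Wald test called 7, beside 12.4%. All 4 calls were lost on log2(FPKM + 0.1) too, and on leaving out fed replicate 3. On log2(FPKM + 1) the calls of Nr0b2, NCOA1 and the first Pprc1 gene were lost. Leaving out fed replicate 1 ended the Nr0b2 call, and leaving out fed replicate 2 ended those of NCOA1 and both Pprc1 genes. The log2 fold change of Nr0b2 was -1.73 without fed replicate 3.

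Of 28 enzymes and factors that act on PGC-1alpha, 1 rose, 2 fell and 25 did not pass. The called share was 10.7% beside 5.16% of all tested genes. Leaving out fed replicate 1, 1 rose and 5 fell, beside 12.3% of all tested genes called. Sirt1, the deacetylase known in mammals to activate PGC-1alpha, had 4.89, 7.38 and 8.22 CPM in starved liver, against 20.1, 18.6 and 25.6 CPM in fed liver. It fell (log2 fold change -1.65, edgeR adjusted p = 0.0195), but not on log2(FPKM + 0.1) or on leaving out any of the libraries except fed replicate 1 (adjusted p up to 0.0955). A kinase gene, GSK3B, fell in 1 of its 3 copies (log2 fold change -2.37, edgeR adjusted p = 0.00964) and 1 of 3 Klf15 copies, encoding a transcription factor of fasting metabolism in mice, rose (3.21, edgeR adjusted p = 0.0442). The GSK3B call was lost on leaving out any starved library, and the Klf15 call without any library other than starved replicate 1, in both FPKM fits and in both voom fits. Without fed replicate 3 the log2 fold change of this Klf15 copy was 3.87. PRKAA1, a catalytic subunit of the energy sensor AMPK, had 53.0 ± 3.65 CPM in starved and 31.7 ± 14.2 CPM in fed liver and did not pass (SD, n = 3 per group; edgeR adjusted p = 0.283).

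Of 17 other receptors and factors that PGC-1 coactivates, 0 passed with edgeR, while 6 had an unadjusted p under 0.05, beside 21.9% of all tested genes, and 5 were called by the DESeq2 Wald test, beside 12.4%. Without fed replicate 1, 4 of them rose and 4 fell, beside 12.3% of all tested genes called. The nearest to the threshold was nr3c1, the glucocorticoid receptor, in 1 of 2 copies (log2 fold change 1.89, edgeR adjusted p = 0.0542), followed by a copy of hnf4a, a hepatocyte regulator (-0.97, adjusted p = 0.0592). TFAM, the mitochondrial genome's transcription factor, had a log2 fold change of -0.62 (edgeR adjusted p = 0.167).

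**Figure D5:**
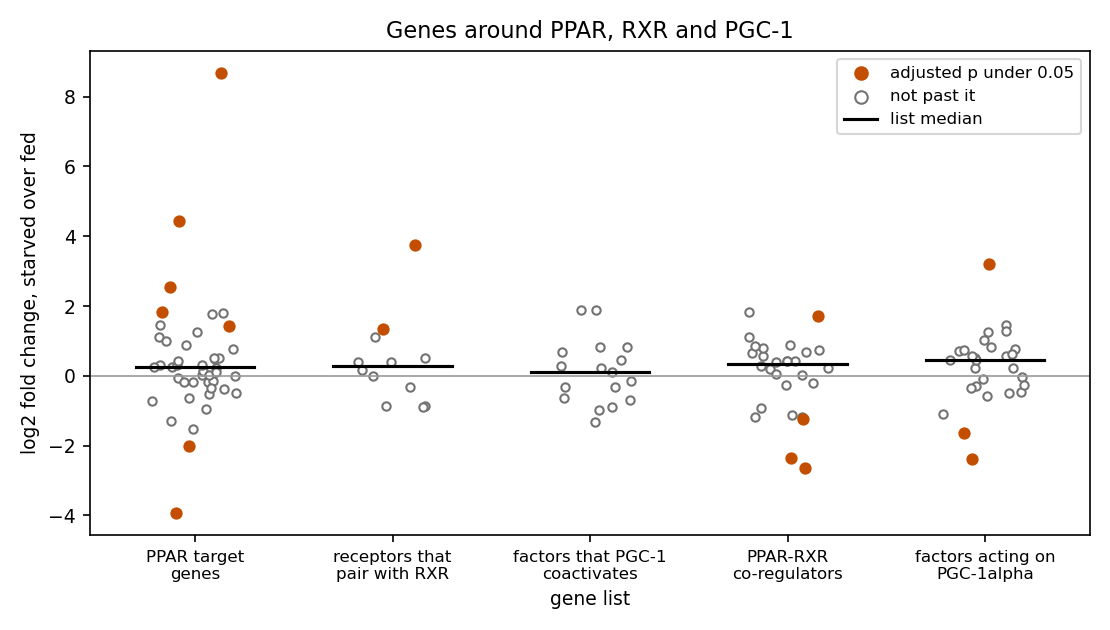
Log2 fold change of starved over fed for each tested gene of the 5 lists, filled where the adjusted p was under 0.05, with a line at each list's median. The medians lie between 0.11 and 0.46, and the called genes lie on both sides of 0 in 3 of the 5 lists.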

How the data were processed

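Poly(A) RNA of 3 starved and 3 fed livers was sequenced as paired ends from stranded libraries, per the labels' protocols. The submitters' processing notes list the tools HTSeq, HISAT2, Cufflinks and Trimmomatic; their versions, settings, genome build and whether counting used the strand are not given in the sources used here. The count table the authors deposited holds whole, unnormalized counts. The deposited FPKM values equal the count over the column total and a fixed coding length, carry no scaling between libraries, and served to compare levels between genes. The authors' deposited ratio is starved over fed, with a q-value whose test is not given. Replicates of each group differed by more than counting error (chi-square per degree of freedom from 33.6 to 149).

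Counts were filtered with filterByExpr (13338 of 19303 genes kept), TMM-scaled and tested with edgeR 4.0.16 (quasi-likelihood F test, robust) in R 4.3.3, with p-values adjusted over all tested genes by the Benjamini-Hochberg method and called under 0.05. The SE was derived from the fold change and its F value. Ratios (with an offset of 0.5 counts), shares and sums within libraries were compared by exact permutation. Alternatives used DESeq2 1.42.0, limma 3.58.1 on log2(FPKM + 1) or log2(FPKM + 0.1), limma-voom, other scalings and filters, and each library left out. The fits were also run on simulated counts with known changes, where the only pass condition was the sign of the larger changes. No simulated library deviated as fed replicate 1 does, so that run does not bear on the calls made here. Intervals and errors reflect the spread between libraries.

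The 10 genes and the lists were chosen with earlier results of these data known. Named were all 10 genes, up to 4 called genes per list, tested copies of a few PPAR targets and the 3 nearest profiles of each called gene. LPL, PLIN2, Nr1h4, Nr1h3, PRKAA1, TFAM, nr3c1, hnf4a and other copies of list genes were named after their values were seen. The summary of read quality was not used here. A result of the target list is not reported here.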

Additional observations from a re-analysis of the deposited data

How the results depend on the processing

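Genes called over the whole table numbered 688, against 1655 with the DESeq2 Wald test, 445 on log2(FPKM + 0.1), 1951 with quality weights per library and 102 to 1704 with a library left out. Of the 10 receptor and coactivator genes 3 were called, against 5 with the DESeq2 Wald test, 5 with quality weights and 1 to 5 with a library left out. Of the list genes 16 were called, against 32 with the DESeq2 Wald test, 10 on log2(FPKM + 1), 8 on log2(FPKM + 0.1), 35 with quality weights and 4 to 28 with a library left out. The highest counts with a library left out were those without fed replicate 1. The log2 ratio of the PPARA copies (6.98) stayed within 6.28 to 7.87, and the rxrgb share difference (-29.1 points) within -30.5 to -26.7. The PPARA call held in each alternative, and those of PPARGC1A and rxrgb ended as stated above.

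Fold changes under each alternative were compared for the 10 genes and the 16 called list genes, and among these the values that changed sign lay near 0 and were not called. The longer rxrba gene (0.11) had -0.23 with quality weights and -0.34 (without fed replicate 1) to 0.44 with a library left out. The shorter rxrba gene (0.02) had -0.12 with quality weights and -0.17 (without fed replicate 1) to 0.13 with a library left out. PPARG (-0.0027) had 0.0041 with DESeq2 size factors, 0.012 with upper-quartile scaling, 0.0043 with the DESeq2 Wald test, 0.031 on log2(FPKM + 1), 0.033 on log2(FPKM + 0.1), 0.014 with no filter, 0.011 with quality weights and -0.10 to 0.15 (without starved replicate 1) with a library left out. Among these genes and alternatives, 84 values lost the call and 9 gained it, where the list genes, all called, could only lose theirs; the causes were not tested. No scaling moved the median of all genes past 0.06.

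Quality weights, the KEGG term and the rxrgb, PPARD and PGC-1 shares were chosen after the data were seen. The ppara share and the summed levels of the PPARA copies, PPAR, RXR and PGC-1 genes, with their permutation tests, were not planned either. No paired analysis was possible because the codes in the titles share too few marks to match libraries. Low counts limit PPARA in starved liver (10 to 16 counts) and PPARGC1A in fed liver (5 to 37 counts).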
